A study of Mus musculus with 12 samples.

Results

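The 33 genes described here are the transcription factor Atf4, genes known as its targets, and enzymes and transporters of serine and other amino acids. They were listed by symbol, and all 33 were found among the 55416 gene IDs of the count tables, each with its own ID (Ddit3 has a further ID, with 0 reads in all 12 libraries). The members were chosen by name with measured values in view, namely the fold changes of B16 cells with interferon gamma (IFNG). For that reason the B16 response of these genes is given below as a description, with no p-value for a member, and so is the difference between the lines in that response, which contains it. Counts of called members in those 2 comparisons are set beside the share called over all genes and support nothing. Comparisons between the untreated or the treated lines share B16 libraries with the B16 response, so their calls and p-values are a description as well. The genes were ordered by role into 7 stress-response transcription factors, 8 feedback and stress effectors, 3 enzymes of serine synthesis, 3 of the mitochondrial folate cycle, 6 of other amino acid and phosphoenolpyruvate synthesis, and 6 amino acid transporters.

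RNA-seq of total RNA was made from 2 mouse melanoma lines, YUMM1.1, which comes from a genetically engineered mouse model, and B16, which comes from a spontaneous tumour. Cultures received recombinant mouse IFNG at 10 ng/ml and were harvested at 48 h, or were left untreated as controls. The 4 groups were IFNG-treated YUMM1.1, untreated YUMM1.1, IFNG-treated B16 and untreated B16, with 3 libraries each and 12 in all, and the labels name no genetic change or other agent in any group. Each kind of melanoma is represented by 1 line, and separate cultures are not labelled for the 3 libraries of a group, so a p-value reflects only how far these samples spread, which could be a technical spread.

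ATF4 is the effector of the integrated stress response. Kinases that sense missing amino acids, unfolded protein, double-stranded RNA or haem deficiency phosphorylate the initiation factor eIF2, general translation falls, and the ATF4 message is translated in spite of that because of upstream open reading frames in its leader. ATF4 then pairs with C/EBP proteins on composite DNA elements and raises genes for amino acid synthesis and uptake, among them the serine pathway, in which PHGDH, PSAT1 and PSPH turn a glycolytic intermediate into serine and SHMT2 and MTHFD2 pass its carbon into mitochondrial folate.

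The composite element is commonly written TGATGNAA, and the promoters of members were searched for it because the B16 values below differ so widely among them. The windows were RefSeq promoters of build GRCm38.p6, 300 bases each, from 250 bases before the start site to 50 bases that begin with it, read on both strands (TTNCATCA on the other). Of the 33 members 27 had a window and 9 held the element, namely Trib3, Pycr1, Vldlr, Pck2, Chac1, Asns, Slc1a4, Atf3 and Nupr1. The list includes known ATF4 targets, so nothing is read from the count of 9 beside all genes. The element was present in 4.0% of all 32851 windows and for 4.5% of 27025 genes. The stretches of 30 bases below show it in capitals for the 8 with the largest B16 differences in size, each read 5′ to 3′ on the strand that carries TGATGNAA.
Trib3: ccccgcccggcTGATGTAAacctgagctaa
Pycr1: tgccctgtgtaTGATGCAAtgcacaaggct
Vldlr: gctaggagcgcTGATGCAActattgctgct
Pck2: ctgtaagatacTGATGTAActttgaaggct
Chac1: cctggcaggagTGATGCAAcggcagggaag
Asns: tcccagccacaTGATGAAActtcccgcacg
Slc1a4: caggctggagaTGATGCAAcgcaggaggca
Atf3: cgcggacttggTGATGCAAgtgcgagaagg
They lie at chr2:152344028-152344057 (strand +), chr11:120643833-120643862 (-), chr19:27216809-27216838 (-), chr14:55540152-55540181 (-), chr2:119351038-119351067 (-), chr6:7693214-7693243 (-), chr11:20332699-20332728 (+) and chr1:191183425-191183454 (+) in that order. Counted from its window's start site as position 0, the Trib3 element lay at 14 to 21, after that start but outside the GENCODE gene. That of Slc1a4 spanned the start at -4 to 3. All the others lay before the start of their own window, from -200 for Vldlr to -16 for Asns. A gene counted as holding the element if any of its windows did. For Vldlr a further window, at the GENCODE gene start, lacked it. The matches of Vldlr, Atf3, Nupr1 and Asns lie inside the GENCODE bounds of those genes. In Pycr1 and Pck2 it took the same place, -103 to -96. The 250 bases before the start of these 2 genes are shown because both are among the lowest members in B16 and hold the element wholly before the start, and the capitals again mark the element, which in Pck2 reads TTACATCA on the gene's own strand.
Pycr1: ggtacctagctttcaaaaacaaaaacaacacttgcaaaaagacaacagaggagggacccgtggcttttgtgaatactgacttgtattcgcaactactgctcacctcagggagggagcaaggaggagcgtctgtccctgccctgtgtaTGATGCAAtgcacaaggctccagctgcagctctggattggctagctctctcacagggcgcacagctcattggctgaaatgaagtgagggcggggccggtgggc
Pck2: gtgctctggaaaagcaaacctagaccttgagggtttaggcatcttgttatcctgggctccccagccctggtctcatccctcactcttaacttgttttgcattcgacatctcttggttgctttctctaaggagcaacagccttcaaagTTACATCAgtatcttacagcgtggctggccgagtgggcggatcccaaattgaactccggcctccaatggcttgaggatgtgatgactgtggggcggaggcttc
They are chr11:120643749-120643998 on the minus strand and chr14:55540016-55540265 on the plus strand. A match is a run of letters and not a shown binding site.

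Total counts were 21574488 to 24747859 in IFNG-treated YUMM1.1, 19145253 to 22363397 in untreated YUMM1.1, 5031085 to 6639618 in IFNG-treated B16 and 2573805 to 7888257 in untreated B16, so low levels are less precise in B16. Library 3 of IFNG-treated B16 stood apart, with 1.95% mitochondrial counts against 1.07% and 1.04% in its group, and so did library 1 of untreated YUMM1.1, with 1.104% against 0.560% and 0.622%. Of 7 melanocyte markers, summed levels were 740 to 775 CPM (counts scaled to the library total) in IFNG-treated and 688 to 743 CPM in untreated YUMM1.1, nearly all from Sox10 with Tyrp1 at 0, and 33350 to 35320 CPM in IFNG-treated and 28120 to 28310 CPM in untreated B16. The pigment gene Pmel averaged 2.81 CPM in IFNG-treated and 2.10 CPM in untreated YUMM1.1, against 10920 and 5784 CPM in IFNG-treated and untreated B16. Of the 7 markers, edgeR called 6 lower in untreated YUMM1.1 than in untreated B16 and left 1 uncalled. With IFNG on both lines 6 were called lower and 1 higher in YUMM1.1. The 9 leukocyte markers summed to 2.28 to 7.18 CPM in any library, with Itgam and Nkg7 at 0 throughout. The 8 fibroblast markers summed to 760 to 1171 CPM in YUMM1.1 libraries, almost all from Col3a1 with Thy1 at 0, and to 68.2 CPM in library 2 of IFNG-treated B16 against 7.35 to 20.2 CPM in the other B16 libraries. Values without library 2 or 3 of IFNG-treated B16 are given with the B16 results.

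The 33 genes together held a far smaller share of the counts in IFNG-treated than in untreated B16, and about the same share in both states of YUMM1.1. They took 0.217%, 0.219% and 0.191% of counts in IFNG-treated B16, against 0.815%, 0.786% and 0.779% in untreated B16. In YUMM1.1 they took 0.293%, 0.314% and 0.244% of counts with IFNG and 0.290%, 0.268% and 0.316% without. The B16 groups did not overlap and the YUMM1.1 groups did. In bulk RNA, fewer cells that express a gene and less of its RNA per cell cannot be told apart.

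**Figure D1:**
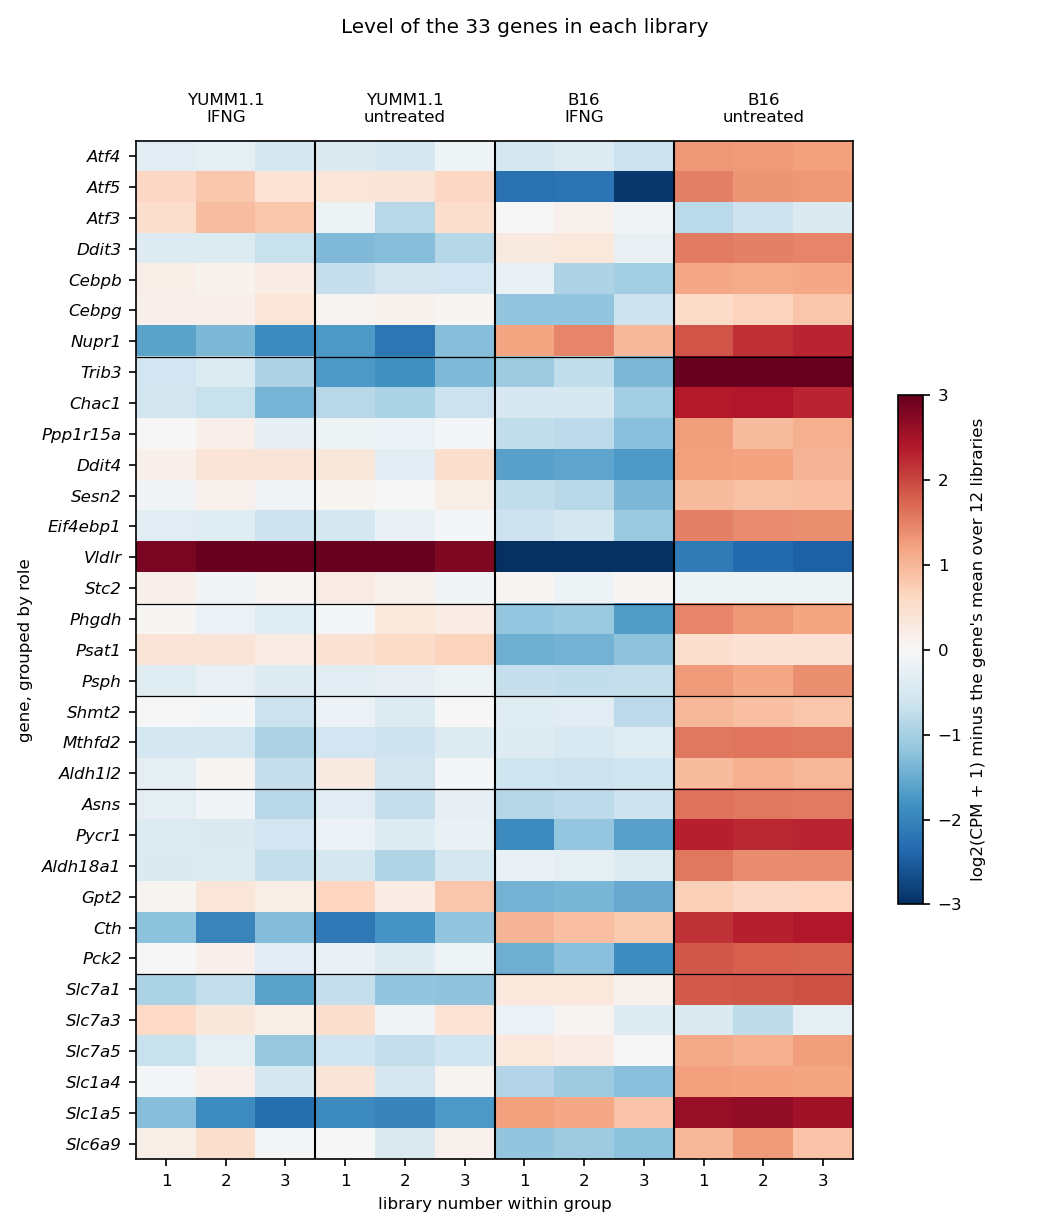
Level of the 33 genes in the 12 libraries, as log2(CPM + 1) minus the gene's mean over all 12, by colour, with the scale held at 3 on either side. Genes run down the page by role and libraries across it by group. The 3 untreated B16 libraries stand out in red for most genes, while Vldlr is high in the 6 YUMM1.1 libraries and Atf3 is not highest in untreated B16.

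In B16, 30 of the 31 members that could be tested lay lower with IFNG and 1, Atf3, lay higher, all 31 past an adjusted p below 0.05 in edgeR. Over all 11240 genes tested, 44.1% were called, 22.0% lower and 22.1% higher, and because this contrast was in view when the genes were listed, nothing is read from the members' count. The median log2 difference of the 31 was -1.81, with a range of -4.23 to 0.87, against a median of -0.01 over all tested genes. In those 30 the treated libraries all lay below the untreated ones, beside 41.3% of all tested genes. Without library 3 of IFNG-treated B16 the counts were again 30 and 1 and the median was -1.73, and without library 2 they were 30 and 1 with a median of -1.78. Stc2 and Slc7a3 had too few reads to be tested in B16, and without library 1 of untreated B16 the same held for Vldlr, which left 29 lower.

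In YUMM1.1, which shares no library with B16, few of the genes passed the threshold, and those that did were higher with IFNG. A gene without a call may still have changed. Of 32 tested members 3 rose, Trib3, Cebpb and Ddit3, and none fell by edgeR's quasi-likelihood test, while over all 12970 tested genes 4.56% were called, 3.73% higher and 0.825% lower. At an unadjusted p below 0.05 the counts were 4 higher and 0 lower, by DESeq2 4 and 0, and by limma-voom 3 and 0. The median log2 difference of the 32 was 0.10, with a range of -0.31 to 1.11, against -0.01 over all tested genes. In 5 members the IFNG libraries all lay above the untreated ones and in 2 all below, shares to be read beside 7.72% and 16.3% of all tested genes. Stc2 was not tested. The sign of most small values here was not stable: left-out libraries moved the median between -0.04 and 0.25, and scaling by library totals alone lowered the median of all genes by 0.08.

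**Figure D2:**
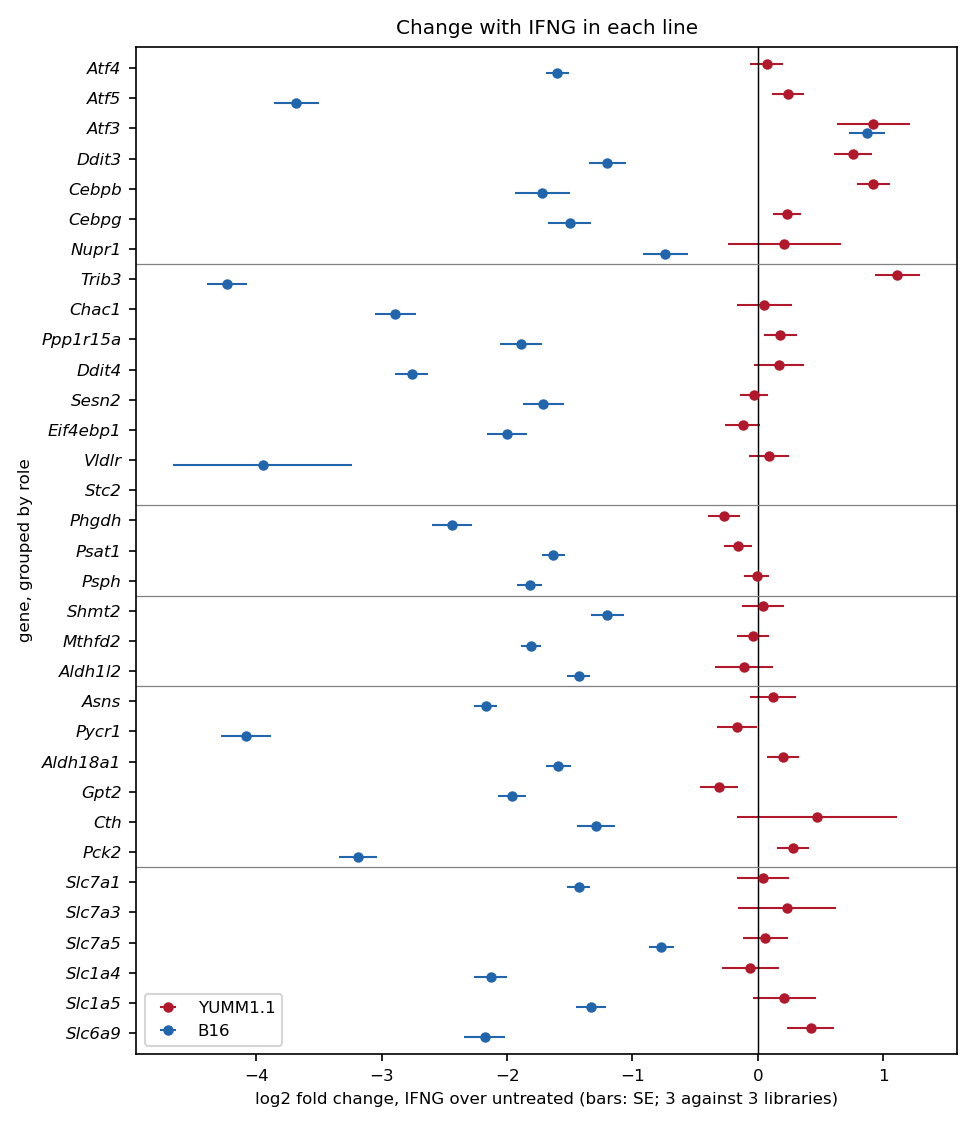
Log2 fold change with IFNG, treated over untreated, for each gene in YUMM1.1 (red) and B16 (blue), with bars of 1 SE from 3 against 3 libraries. YUMM1.1 values run from -0.31 to 1.11 around the line at 0, B16 values from -4.23 to 0.87, and Atf3 is the gene at which both points lie right of 0.

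Atf4 itself, on chr15:80255184-80257541 of the plus strand, had the highest level per length of all 33 genes in each of the 4 groups. It had 278, 299 and 256 CPM in IFNG-treated B16, against 987, 967 and 938 CPM in untreated B16, a log2 difference of -1.60 ± 0.09 (SE). In YUMM1.1 it had 323, 331 and 279 CPM with IFNG, against 295, 277 and 364 CPM without, a log2 difference of 0.07 ± 0.13 with an adjusted p of 0.871 and an interval of -0.22 to 0.36. The 3 untreated B16 libraries stood above the other 9, which all lay between 256 and 364 CPM.

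Atf5, whose message is also translated through upstream reading frames and whose gene is a known ATF4 target, showed the widest B16 difference among the factors. It had 22.9, 23.3 and 14.01 CPM in IFNG-treated B16, against 318, 279.6 and 274 CPM in untreated B16, which is 14.5-fold lower by the group means. In YUMM1.1 it had 172, 194 and 148 CPM with IFNG, against 143, 145 and 169.9 CPM without (log2 0.24 ± 0.13, adjusted p 0.422), and the groups overlapped. Atf5 overlaps the genes Il4i1 and Nup62 on the other strand. The strand used in counting is not stated, so a read there may come from either gene.

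Ddit3 encodes CHOP, the factor linked to death under long stress, and Cebpb and Cebpg encode C/EBP partners of ATF4. Ddit3 had 58.3, 60.4 and 41.4 CPM in IFNG-treated B16, against 143, 139 and 136 CPM in untreated B16, and Cebpb had 14.7, 8.55 and 7.68 CPM against 39.3, 38.2 and 39.2 CPM. In YUMM1.1 Ddit3 had 36.7, 36.3 and 30.2 CPM with IFNG, against 18.8, 19.2 and 26.4 CPM without, and rose by a log2 of 0.76 ± 0.15 (adjusted p 0.018). Cebpb had 19.6, 18.5 and 20.1 CPM with IFNG, against 10.2, 11.3 and 11.01 CPM without, and rose by 0.92 ± 0.13 (adjusted p 0.00137). These 2 genes were thus lower in every treated B16 library and higher in every treated YUMM1.1 library than in the controls of the same line. The Ddit3 call rested on few libraries: without library 1 or 2 of untreated YUMM1.1 or library 1 or 2 of IFNG-treated YUMM1.1 the adjusted p was 0.0678, 0.0719, 0.0583 and 0.0688. Cebpg had a log2 difference of -1.50 ± 0.17 in B16 and 0.23 ± 0.11 in YUMM1.1 (adjusted p 0.358). Ddit3 overlaps Mars and Cebpb overlaps Tmem189 on the other strand. On its own strand Ddit3 overlaps the further ID of the same symbol, which held no read, and Cebpg, Sesn2, Mthfd2, Aldh18a1 and Cth overlap non-coding, provisional or pseudogene annotations on theirs, where reads could be shared whatever the strand setting.

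Atf3 was the only factor not lower in treated B16, and Nupr1 was lower by less than the other factors. Atf3, an early stress and cytokine response factor, had 30.1, 32.6 and 28.2 CPM in IFNG-treated B16, against 16.7, 19.1 and 21.8 CPM in untreated B16, and was the single member higher there, with a log2 difference of 0.87 ± 0.14. In YUMM1.1 it had 43.7, 57.7 and 53.8 CPM with IFNG, against 26.9, 16.4 and 43.6 CPM without, a log2 difference of 0.92 ± 0.29 that missed the threshold at an adjusted p of 0.138 although the treated libraries all lay above the untreated ones. DESeq2 called it (adjusted p 0.0114), as did the fit of all 12 libraries (0.026) and the fit without library 3 of untreated YUMM1.1 (0.0112). Nupr1, a small stress-induced chromatin protein, had 14.5, 17.9 and 12.3 CPM in IFNG-treated and 24.2, 29.9 and 32.2 CPM in untreated B16. Its fitted log2 difference of -0.74 was the smallest of the lower genes, beside -0.77 for Slc7a5. That rank turned on 1 library. Without library 2 of IFNG-treated B16 Nupr1 was at -0.88, while Slc7a5 lay at -0.84 or above in every fit without 1 library. In YUMM1.1 Nupr1 lay at 1.24 ± 0.424 CPM with IFNG and 1.13 ± 0.641 CPM without (SD, n = 3 each). The log2 difference there was 0.21, with an adjusted p of 0.898 in edgeR.

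**Figure D3:**
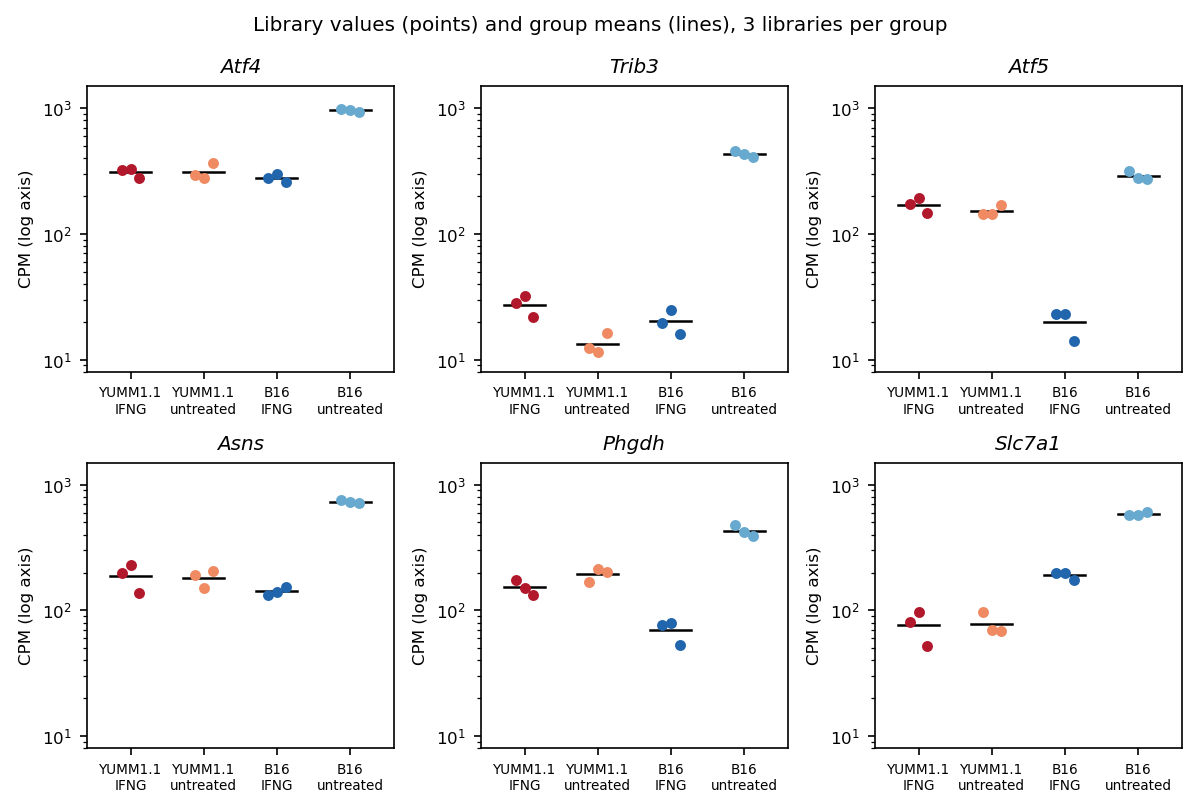
CPM of 6 members on a log axis, with 1 point per library and a line at the mean of each group of 3. For Trib3 the treated B16 libraries sit at 16.1 to 25.0 CPM and the untreated ones at 406 to 458 CPM, while in YUMM1.1 the treated libraries sit at 21.9 to 31.8 CPM, above the untreated 11.5 to 16.4 CPM.

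Trib3, a pseudokinase that binds ATF4 and dampens it, had the largest rise in YUMM1.1 and the largest fitted log2 difference in B16, a rank over Vldlr that turned on 1 library, as given with Vldlr. It had 19.7, 25.04 and 16.1 CPM in IFNG-treated B16, against 458, 432 and 406 CPM in untreated B16, 21.3-fold lower by the group means and -4.23 ± 0.16 on the log2 scale. In YUMM1.1 it had 28.4, 31.8 and 21.9 CPM with IFNG, against 12.3, 11.5 and 16.4 CPM without, and rose by a log2 of 1.11 ± 0.18 (adjusted p 0.00405). No library of one state overlapped with the other in either line, and the directions were opposite.

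Of the other effectors, Chac1, Ddit4, Ppp1r15a, Sesn2 and Eif4ebp1 were lower in treated B16 and had no call in YUMM1.1. Chac1, which degrades glutathione, had 16.2, 16.1 and 10.7 CPM in IFNG-treated B16, against 123, 125 and 115 CPM in untreated B16. Ddit4, an inhibitor of mTORC1, had 8.85, 9.14 and 8.28 CPM against 70.7, 70.1 and 61.4 CPM in the same groups. Ppp1r15a (GADD34), the phosphatase subunit that reverses eIF2 phosphorylation, had a log2 difference of -1.89 ± 0.17 in B16, Sesn2, a leucine sensor that restrains mTORC1, -1.71 ± 0.16, and Eif4ebp1, the translation repressor released when mTORC1 is low, -2.0 ± 0.16. In YUMM1.1 these 5 had log2 differences of 0.05, 0.17, 0.18, -0.03 and -0.12, with adjusted p-values of 0.577 to 0.958. The interval for Chac1, the widest of the 5, was -0.44 to 0.54. Ppp1r15a overlaps Tulp2 on the other strand.

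Vldlr, a lipoprotein receptor, and Stc2, a secreted glycoprotein, are ATF4 targets outside amino acid metabolism and were nearly silent in 1 or both lines. Vldlr had 2 reads in all of IFNG-treated B16, against 37 in untreated B16, a ratio of 0.0474 with an exact counting interval of 0.00553 to 0.184. Both reads lay in library 2, so without it the treated B16 group was at 0 and the fitted log2 difference was -6.66 in place of -3.95, which then rests on that 0, against -4.40 and -4.23 for Trib3. In YUMM1.1 it had 114, 158 and 133 CPM with IFNG, against 161, 130.1 and 111 CPM without (log2 0.09 ± 0.16, adjusted p 0.873). Stc2 had 2 reads in IFNG-treated B16 and 0 in untreated B16, both under the floor of 3 counts over a group, and 10 reads in IFNG-treated and 12 in untreated YUMM1.1. Counting intervals and floors cover counting error only.

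All 3 enzymes of serine synthesis were lower in treated B16. Phgdh, the first and committed step, had 77.0, 79.3 and 53.02 CPM in IFNG-treated B16, against 475, 423 and 391 CPM in untreated B16, 6.16-fold lower by the means. Psat1, the transaminase, had 129, 134 and 154 CPM against 504, 485 and 482 CPM, and Psph, the phosphatase, 41.9, 40.8 and 40.8 CPM against 167, 153 and 179.5 CPM in the same groups. In YUMM1.1 none of the 3 was called, by edgeR, DESeq2 or limma-voom. Phgdh had 176, 152 and 133 CPM with IFNG, against 169, 214 and 202 CPM without (log2 -0.27 ± 0.13, adjusted p 0.379). Psat1 had 472, 466 and 425 CPM with IFNG, against 496, 533 and 573 CPM without (log2 -0.16 ± 0.11, adjusted p 0.589), with no overlap between the groups. The intervals in YUMM1.1 were -0.57 to 0.02 for Phgdh and -0.40 to 0.09 for Psat1. The B16 values of -2.44 and -1.63 are a description and were not tested against these intervals.

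The 3 mitochondrial folate enzymes were lower in treated B16 as well. Mthfd2, the dehydrogenase that follows SHMT2, had 128, 122 and 130.1 CPM in IFNG-treated B16, against 507, 509.5 and 507 CPM in untreated B16. Shmt2, which splits serine into glycine and a folate-bound carbon, had 238, 242 and 177 CPM against 609, 573 and 544 CPM. Aldh1l2, which oxidises formyl-folate in mitochondria, had 51.95, 51.1 and 52.1 CPM against 153, 167 and 158 CPM in the same groups. Their log2 differences were -1.81 ± 0.08, -1.20 ± 0.13 and -1.43 ± 0.09 in B16, and -0.04 ± 0.13, 0.04 ± 0.17 and -0.11 ± 0.23 in YUMM1.1, where adjusted p-values were 0.888 to 0.951. Shmt2 overlaps Ndufa4l2, and Aldh1l2 overlaps D10Wsu102e, on the other strand.

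Among the other synthetic enzymes the proline step and the mitochondrial PEP carboxykinase differed most in B16. Pycr1, which makes proline, had 1.84, 3.78 and 2.41 CPM in IFNG-treated B16, against 51.98, 49.8 and 50.9 CPM in untreated B16, 19.03-fold lower by the means. Pck2, the mitochondrial PEP carboxykinase, had 28.4, 32.6 and 21.1 CPM against 294, 281 and 277 CPM, 10.4-fold lower. Asns, asparagine synthetase, had 134, 141 and 155 CPM against 750.2, 732 and 717 CPM, 5.12-fold lower. Aldh18a1, the first step of proline synthesis, had a log2 difference of -1.59 in B16, Gpt2, the mitochondrial alanine transaminase, -1.96, and Cth, the cystathionine lyase that yields cysteine, -1.29. In YUMM1.1 the 6 had log2 differences from -0.31 (Gpt2) to 0.47 (Cth) with adjusted p-values of 0.372 to 0.841. Asns had 197, 229 and 137 CPM with IFNG, against 191, 150.5 and 204 CPM without, and Pck2 had 80.6, 89.3 and 63.7 CPM against 68.9, 61.2 and 73.1 CPM. Cth was at 0.951 ± 0.511 and 0.729 ± 0.598 CPM in IFNG-treated and untreated YUMM1.1, and its interval of -0.96 to 1.89 leaves a difference of either sign.

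Of the transporters, Slc1a4 and Slc6a9 differed more in B16 than the rest. Slc1a4, a neutral amino acid exchanger that takes serine, had 27.1, 23.4 and 20.3 CPM in IFNG-treated B16, against 120.1, 118 and 115 CPM in untreated B16. Slc6a9, the glycine transporter GLYT1, had 7.18, 7.75 and 6.93 CPM against 35.8, 43.8 and 32.6 CPM in the same groups. Slc7a1, the arginine and lysine transporter CAT1, was -1.43 on the log2 scale, and Slc1a5, the glutamine transporter ASCT2, -1.33. Slc7a5, the large neutral amino acid transporter LAT1, had the smallest B16 difference of the 5, with 306, 286 and 250.5 CPM in IFNG-treated and 544, 517 and 586 CPM in untreated cells. In YUMM1.1 the 6 transporters had log2 differences from -0.06 (Slc1a4) to 0.42 (Slc6a9) and adjusted p-values of 0.350 to 0.966. Slc7a3, a further cationic amino acid transporter, had 9 reads in IFNG-treated and 3 in untreated B16, a ratio of 2.63 with a counting interval of 0.657 to 15.1. Slc7a5 overlaps Gm20388, and Slc6a9 overlaps B4galt2 and Ccdc24, on the other strand.

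The difference of the IFNG effects between lines, YUMM1.1 minus B16, was positive for 31 of 32 tested members and past the edgeR threshold for 29, all positive. Over all 13603 tested genes 9.95% were called positive and 8.51% negative, but the B16 contrast that was in view when the genes were listed is part of this difference, so it is a description and nothing is read from the count. Its median over the 32 members was 1.82, against 0.02 over all tested genes. It was widest for Trib3 at 5.36 ± 0.25, Vldlr at 4.20 ± 0.78, Atf5 at 3.94 ± 0.23, Pycr1 at 3.93 ± 0.26 and Pck2 at 3.49 ± 0.22 (log2 ± SE). Without library 2 of IFNG-treated B16 Vldlr, then at 0 in that group, was the widest at 7.97, against 5.53 for Trib3. Atf3 at 0.06 ± 0.36, Nupr1 at 0.98 ± 0.45 and Slc7a3 at -1.29 ± 1.00 were the 3 tested members not past it. For Atf3 the log2 effects were 0.92 in YUMM1.1 and 0.87 in B16. The value for Cth, 1.79 ± 0.60, rested on few reads in YUMM1.1, and without any single library other than library 3 of untreated or library 2 of IFNG-treated YUMM1.1 it was not past the threshold.

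Between the untreated lines most members were lower in YUMM1.1. Of 32 tested members 27 were lower, 4 were higher and Gpt2 was not called, while over all 13603 tested genes 68.1% were called, 33.4% lower and 34.7% higher. The median log2 difference of the members was -1.36, against 0.02 over all tested genes. In 27 members the YUMM1.1 libraries all lay below those of B16 and in 2 tested members, Vldlr and Slc7a3, all above, beside 43.9% and 30.4% of all tested genes. The untreated B16 libraries are also the controls of the B16 IFNG contrast that was in view when the genes were listed. A gene lower after IFNG in B16 had to be present in those controls. Calls and p-values of members between the untreated lines, here and below, are therefore a description and support nothing as tests.

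Among the genes lower in YUMM1.1 the largest gaps lay at Cth, Trib3, Nupr1 and Slc1a5. Trib3 averaged 13.4 ± 2.63 CPM in untreated YUMM1.1 and 432 ± 26.01 CPM in untreated B16 (SD, n = 3 each), 32.2-fold lower in YUMM1.1 (log2 -4.79 ± 0.19, adjusted p 9.80e-13). Cth averaged 0.729 ± 0.598 CPM in untreated YUMM1.1 and 25.7 ± 2.09 CPM in untreated B16 (log2 -4.93 ± 0.42, adjusted p 2.07e-08). Slc1a5 averaged 8.52 ± 0.943 CPM in untreated YUMM1.1 and 209.8 ± 10.7 CPM in untreated B16 (log2 -4.40 ± 0.22, adjusted p 1.63e-11). All of them were low in YUMM1.1 in every library. Atf4 averaged 312 ± 45.8 CPM in untreated YUMM1.1 and 964 ± 24.3 CPM in untreated B16 (log2 -1.41 ± 0.12, adjusted p 2.26e-08), and Asns 182 ± 28.1 CPM and 733 ± 16.6 CPM (log2 -1.79 ± 0.16, adjusted p 3.93e-08).

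Serine synthesis was uneven between the untreated lines. Phgdh and Psph were lower in YUMM1.1, at -0.92 ± 0.15 and -1.31 ± 0.10 on the log2 scale (adjusted p 5.52e-05 and 8.31e-09). Psat1 had 496, 533 and 573 CPM in untreated YUMM1.1, against 504, 485 and 482 CPM in untreated B16 (log2 0.34 ± 0.10, adjusted p 0.00821), and 1 YUMM1.1 library lay within the B16 range. Scaled by library totals alone, which lowers the median of all genes by 0.22, Psat1 had a log2 difference of 0.12 and an adjusted p of 0.297. Vldlr, higher in YUMM1.1, had the largest gap of all tested members in either direction, with 161, 130.1 and 111 CPM in untreated YUMM1.1, against 2.66, 2.19 and 1.94 CPM in untreated B16 (log2 6.02 ± 0.25, adjusted p 2.36e-12). Atf3 (log2 0.84 ± 0.27, adjusted p 0.0108) lost its call without library 1 of untreated B16 (0.0515) or library 3 of untreated YUMM1.1 (0.0885). Cebpg (log2 -0.40 ± 0.14, adjusted p 0.0173) lost its call without library 3 of untreated B16 (0.0757), and Gpt2 gained one without library 2 of untreated YUMM1.1 (0.0484). Slc7a3 had 67 reads in untreated YUMM1.1 and 3 in untreated B16, a ratio of 5.67 with a counting interval of 1.86 to 28.2. Stc2 had 12 reads in untreated YUMM1.1 and 0 in untreated B16. With the B16 group set to the floor of 3 counts the ratio was 1.02, so no direction is read for Stc2.

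**Figure D4:**
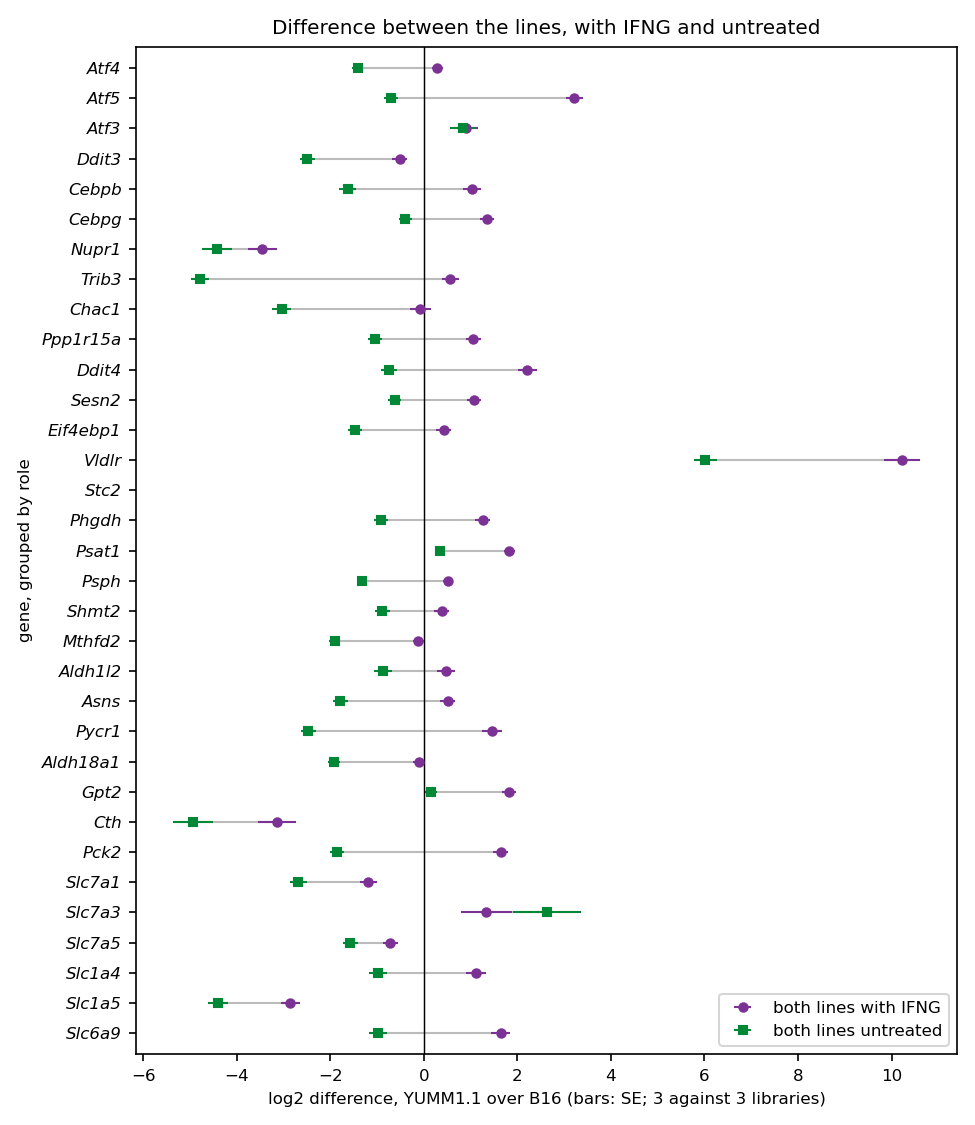
Log2 difference between the lines, YUMM1.1 over B16, when both had IFNG (purple circles) and when both were untreated (green squares), with bars of 1 SE from 3 against 3 libraries and a grey line joining the 2 values of a gene. Untreated values lie left of 0 for 27 of 32 tested genes, while IFNG-treated values lie right of 0 for 23.

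With IFNG on both lines most members were higher in YUMM1.1. Of 32 tested members 23 were higher, 6 were lower and 3 were not called, while over all tested genes 69.8% were called, 36.6% higher and 33.2% lower. The median log2 difference of the members was 0.73, against 0.04 over all tested genes. In 17 members the YUMM1.1 libraries all lay above those of B16 and in 8 all below, beside 33.9% and 38.3% of all tested genes. The treated B16 libraries are those of the B16 contrast, so the calls are not independent of it. Calls and p-values of members between the treated lines, here and below, are therefore a description and support nothing as tests. Without library 3 of IFNG-treated B16 the count higher was 17, and without library 2 of IFNG-treated YUMM1.1 it was 16.

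Atf5, Psat1, Ddit4 and Gpt2 showed wide gaps. Atf5 averaged 171 ± 23.1 CPM in IFNG-treated YUMM1.1 and 20.1 ± 5.24 CPM in IFNG-treated B16 (log2 3.22 ± 0.18, adjusted p 6.50e-11). Psat1 averaged 454 ± 25.4 CPM in IFNG-treated YUMM1.1 and 139 ± 13.2 CPM in IFNG-treated B16 (log2 1.83 ± 0.11, adjusted p 1.56e-10). Gpt2, which was not called between the untreated lines, averaged 64.2 ± 6.38 CPM in IFNG-treated YUMM1.1 and 19.8 ± 0.925 CPM in IFNG-treated B16 (log2 1.82 ± 0.15, adjusted p 1.56e-08). These libraries did not overlap. Vldlr had 9477 reads in IFNG-treated YUMM1.1 and 2 in IFNG-treated B16, a ratio of 1198 with a counting interval of 332 to 9897.

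The genes still lower in YUMM1.1 under IFNG were Ddit3, Nupr1, Cth, Slc7a1, Slc7a5 and Slc1a5, at log2 differences of -0.51, -3.45, -3.14, -1.19, -0.72 and -2.85. Slc1a5 averaged 9.37 ± 3.65 CPM in IFNG-treated YUMM1.1 and 73.3 ± 9.89 CPM in IFNG-treated B16 (adjusted p 2.23e-09). Chac1, Mthfd2 and Aldh18a1 were not called, at -0.07 ± 0.22, -0.12 ± 0.12 and -0.10 ± 0.13, with intervals of -0.53 to 0.39, -0.37 to 0.13 and -0.38 to 0.17. Atf4 was called higher at 0.29 ± 0.12 (adjusted p 0.0425), but its libraries overlapped and it was not called by DESeq2 (0.0504) or with library totals alone (0.222). Shmt2, Aldh1l2, Eif4ebp1, Slc7a3, Trib3, Asns and Ddit3 also lost their calls without at least 1 of the 12 libraries. Stc2 had 10 reads in IFNG-treated YUMM1.1 and 2 in IFNG-treated B16, a ratio of 1.26 with a counting interval of 0.270 to 11.9.

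Per kilobase of exon the order of the members differed between the groups. Atf4 led all 4 groups, at 132 ± 11.9 CPM per kb in IFNG-treated YUMM1.1, 132 ± 19.4 in untreated YUMM1.1, 118 ± 9.03 in IFNG-treated B16 and 409 ± 10.3 in untreated B16 (SD, n = 3). In untreated B16 it was followed by Asns at 268 ± 6.05, Trib3 at 203 ± 12.2, Shmt2 at 185 ± 10.4 and Phgdh at 173 ± 17.0 CPM per kb, of which Trib3 and Shmt2, and Shmt2 and Phgdh, did not differ beyond their spread. In IFNG-treated B16 the next were Slc7a5 at 75.8 ± 7.58 and Shmt2 at 70.4 ± 11.7 CPM per kb, which did not differ beyond their spread. In YUMM1.1 Psat1 came next after Atf4, at 107 ± 5.97 CPM per kb with IFNG and, within the spread of Atf4, at 126 ± 9.08 without.

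The B16 differences of members with the promoter element were described beside those without. The 9 genes with TGATGNAA had a median log2 difference of -2.89 and a range of -4.23 to 0.87, and the 17 tested genes with a window that lacks it had a median of -1.72 and a range of -3.68 to -1.20. Both members at the upper end, Atf3 and Nupr1, carry the element, and Atf5 and Ddit4, among the lowest members, have windows without these letters.

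The genes around the listed ones were given from lists of the same pathways, leaving out the members. These lists were written with earlier results of these data known. Over all tested genes 22.1% were called higher and 22.0% lower in B16, and 3.73% and 0.825% in YUMM1.1. Counts from the lists, here and below, are to be read beside those shares and are a description. So are the p-values of list genes, since most of those named were picked for the largest differences. The 4 eIF2 kinases and the eIF2 machinery made 17 tested genes, of which 9 rose and 4 fell in B16, and 1 rose and 0 fell in YUMM1.1. Eif2ak2, which encodes PKR, the double-stranded RNA kinase and a known interferon target, averaged 139.7 against 33.7 CPM in IFNG-treated and untreated B16 (log2 2.28 ± 0.15, adjusted p 2.82e-06) and 95.5 against 32.4 CPM in IFNG-treated and untreated YUMM1.1 (1.64 ± 0.13, 2.04e-05). Impact, which restrains the amino acid sensor GCN2, averaged 80.5 against 31.5 CPM in IFNG-treated and untreated B16 (1.55 ± 0.16, 5.90e-05). Eif2ak3, which encodes PERK, the sensor of unfolded protein in the endoplasmic reticulum, fell in B16 by 0.71 on the log2 scale. That is the low end of the list's B16 range of -0.71 to 2.28. Eif2ak4, which encodes GCN2, was at 0.18 without a call. Both were picked after their values were seen, and the remaining kinase of the 4 is not given.

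Of 17 tested further ATF4 targets 9 fell and 3 rose in B16, and 0 of 18 were called in YUMM1.1 (1 higher and 0 lower at an unadjusted p below 0.05, 1 by DESeq2, 0 by limma-voom). Slc7a11, the cystine importer, averaged 4.81 against 79.6 CPM in IFNG-treated and untreated B16 (log2 -3.83 ± 0.23, adjusted p 1.24e-06). Vegfa, the angiogenic factor, averaged 11.4 against 61.5 CPM in the same groups (-2.27 ± 0.18, 8.46e-06). Among the 20 cytosolic aminoacyl-tRNA synthetases 10 fell and 6 rose in B16, and 2 rose and 0 fell in YUMM1.1. The pair, Wars and Kars, rose in B16 as well. Wars averaged 734 against 165 CPM in IFNG-treated and untreated YUMM1.1 (2.23 ± 0.16, 8.37e-06) and 928 against 289.5 CPM in IFNG-treated and untreated B16 (1.87 ± 0.09, 1.68e-07), and Kars rose by 0.78 ± 0.11 in YUMM1.1 and 1.37 ± 0.09 in B16.

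The neighbouring metabolic lists had calls in both directions in B16 and none by edgeR in YUMM1.1. Of 25 other serine, glycine and folate genes 2 rose and 5 fell in B16, with Aldh1l1, the cytosolic counterpart of Aldh1l2, at 88.9 against 23.3 CPM in IFNG-treated and untreated cells (log2 2.13 ± 0.13, adjusted p 1.75e-06) and Shmt1, the cytosolic counterpart of Shmt2, at 16 against 40.7 CPM (-1.18 ± 0.16, 2.86e-04). Of 17 glutamate, aspartate and proline genes 6 rose and 5 fell in B16, with Aldh4a1 at 1.02 and Prodh at -1.02, both enzymes of proline breakdown. Of 20 other transporters 5 rose and 6 fell, Slc7a11 among them, and Slc25a22, a mitochondrial glutamate carrier, was highest at 1.49. In YUMM1.1 limma-voom made no call in these 3 lists either. At an unadjusted p below 0.05 they had 0 higher and 4 lower, 0 and 0, and 1 and 4 genes in that order, and DESeq2 called 1 lower in the first.

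Chaperone genes of the unfolded protein response were higher in treated B16. Of 20 genes known to follow ATF6 and XBP1, 16 rose and 0 fell by edgeR, beside 22.1% and 22.0% of all tested genes. Their median log2 difference was 0.72. The counts were also 16 and 0 by DESeq2, 15 and 0 by limma-voom, and 16 and 0 at an unadjusted p below 0.05. All of these come from the same libraries. Pdia3, a disulphide isomerase, averaged 1187 against 619.9 CPM in IFNG-treated and untreated B16 (log2 1.13 ± 0.10, adjusted p 2.71e-05), and Calr, calreticulin, 1636 against 863 CPM (1.11 ± 0.08, 5.97e-06). Both also serve the loading of MHC class I. In YUMM1.1 none of the 20 was called by edgeR, DESeq2 or limma-voom, and 3 were higher and 0 lower at an unadjusted p below 0.05. The difference of the effects was taken as YUMM1.1 minus B16. It was called negative for 12 of the 20 chaperone genes and positive for 0 by each of these tools. At an unadjusted p below 0.05 the counts were 14 and 0. Over all tested genes edgeR called 8.51% negative and 9.95% positive. Of 22 genes of nutrient and mTORC1 control 4 rose and 5 fell in B16, among them Myc at 34.6 against 154 CPM in IFNG-treated and untreated cells (-1.97 ± 0.15, 5.53e-06), and 0 were called in YUMM1.1 by edgeR, DESeq2 or limma-voom, with 1 higher and 1 lower at an unadjusted p below 0.05.

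**Figure D5:**
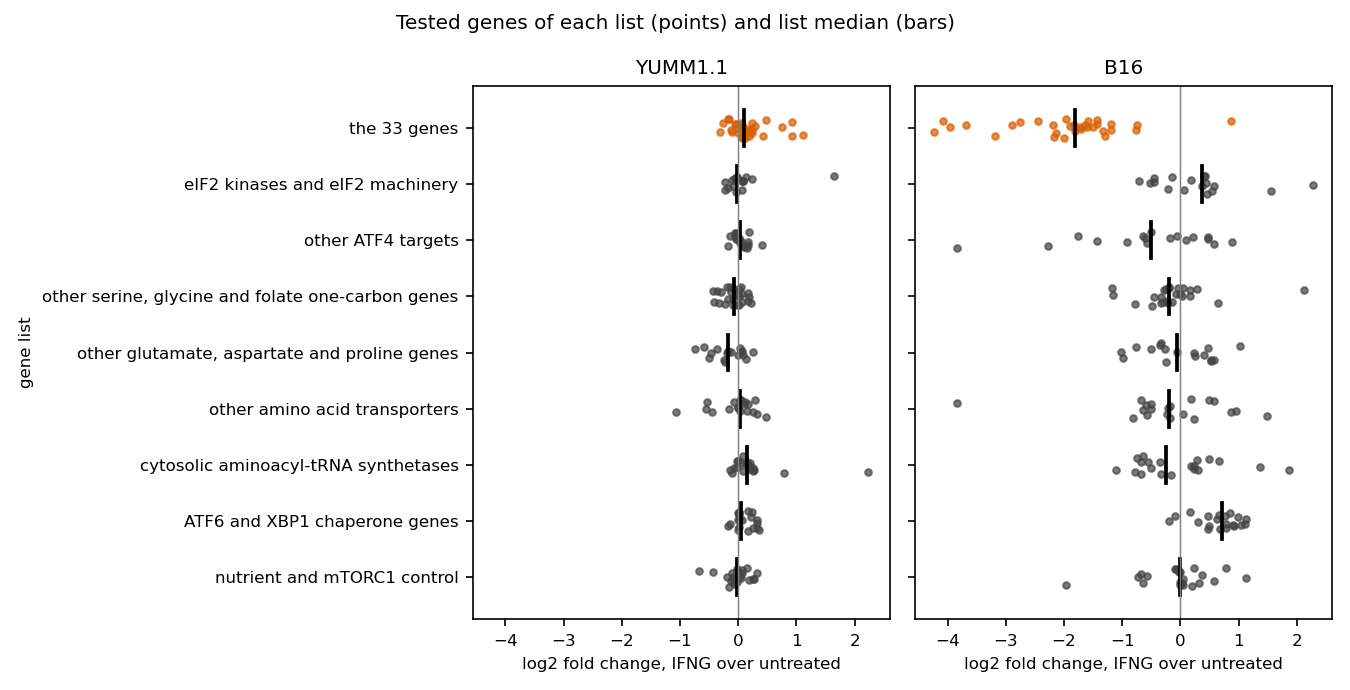
Log2 fold change with IFNG, treated over untreated, of the tested genes in each list (points, spread vertically for sight) with the list's median (bar), in YUMM1.1 on the left and B16 on the right. The 33 genes, in orange, have medians of 0.10 in YUMM1.1 and -1.81 in B16, and the chaperone genes 0.04 in YUMM1.1 and 0.72 in B16.

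The authors' deposited table, whose log2 values also set treated over untreated cells and carry no error, holds -4.21 for Trib3 in B16 and 1.11 in YUMM1.1. For Atf4 the authors' deposited table holds -1.58 in B16 and 0.07 in YUMM1.1, and for Phgdh -2.41 in B16 and -0.27 in YUMM1.1.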

How the data were processed

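Gene counts of 12 bulk RNA-seq libraries were analysed. The deposited tables give whole-number read counts per Ensembl gene ID, not normalized. The authors' deposited comparison tables hold, for each line, a log2 fold change, a statistic (a score) and a raw p-value, of which the log2 values and the symbols were used. GRCm38 is the build in the submitters' processing notes. Aligner, counting tool, annotation and strand setting: not given in the sources used here. Symbols, positions and exon lengths came from GENCODE M21 on GRCm38.

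The members and gene lists were chosen with earlier results of these data known. All 33 members are named, and from each list the 2 called genes with the largest difference in each line at a mean of at least 5 CPM. A few further list genes (Eif2ak3, Eif2ak4, Pmel) were chosen after their values were seen.

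Counts were tested in R 4.3.3 with edgeR 4.0.16 (filterByExpr at its defaults, TMM factors, robust quasi-likelihood F tests). The IFNG effect was fitted on the 6 libraries of a line, and the 3 comparisons that involve both lines on all 12. Calls were made at 0.05 after Benjamini-Hochberg adjustment across the tested genes. The SE was taken from the log2 value and the F statistic, and intervals are at 95%. CPM is the count over the library total. Groups with 1 to 3 reads have a ratio and its exact (binomial) interval. The edgeR step was tested on simulated counts. The alternatives were RLE factors, library totals, other filters, DESeq2 1.42.0, limma-voom 3.58.1, a replicate block, a stricter threshold, other sets of libraries in the fit, IFNG-treated B16 libraries 1 and 2 summed, and each library left out. Those 2 libraries agreed within near sampling noise (chi-square per degree of freedom 1.27). They were kept as 2 replicates because no label ties them to each other. The same value was 16.9 and 17.2 for the other IFNG-treated B16 pairs and 1.55 to 3.26 in untreated B16. Within the deeper YUMM1.1 groups it was 13.5 to 41.5. Promoters are RefSeq windows of GRCm38.p6, and figures were drawn with matplotlib 3.10.9.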

Additional observations from a re-analysis of the deposited data

Results flagged for a closer look

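For 29 members the log2 effect of IFNG in YUMM1.1 and in B16 lay apart by more than the edgeR threshold for the difference (adjusted p below 0.05 over all tested genes). The B16 effect, which is part of each difference, was in view when the genes were listed, so the values are a description and support nothing as tests. The values are YUMM1.1 minus B16, so a positive one means a higher log2 IFNG effect in YUMM1.1, not a higher level there. Among the transcription factors the difference was 1.70 for Atf4, 3.94 for Atf5, 1.97 for Ddit3, 2.66 for Cebpb and 1.75 for Cebpg. Among the feedback and stress effectors it was 5.36 for Trib3, 2.96 for Chac1, 2.10 for Ppp1r15a, 2.95 for Ddit4, 1.70 for Sesn2, 1.90 for Eif4ebp1 and 4.20 for Vldlr. In serine synthesis it was 2.18 for Phgdh, 1.49 for Psat1 and 1.83 for Psph. In the mitochondrial folate cycle it was 1.27 for Shmt2, 1.78 for Mthfd2 and 1.34 for Aldh1l2. For the other enzymes it was 2.31 for Asns, 3.93 for Pycr1, 1.81 for Aldh18a1, 1.67 for Gpt2, 1.79 for Cth and 3.49 for Pck2. For the transporters it was 1.49 for Slc7a1, 0.85 for Slc7a5, 2.09 for Slc1a4, 1.55 for Slc1a5 and 2.62 for Slc6a9. All 29 were positive. Without library 2 of IFNG-treated B16, which holds both reads of Vldlr in that group, its difference was 7.97. Cth was not past the threshold in 10 of the 12 fits without 1 library. Groups of 3 libraries are too small for a test of single outlying libraries.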

How the results depend on the processing

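The B16 values of the 31 members kept their direction and their side of the threshold wherever they could be tested, 495 values over 16 alternatives. Vldlr had too few reads without library 1 of untreated B16, so 29 members were called lower there. Of the other member values 435 of 480 did so for IFNG in YUMM1.1, 652 of 670 for the difference of the effects, 660 of 669 between the untreated and 640 of 702 between the treated lines. At an adjusted p below 0.01 the genes called over the whole table were 3295 in place of 4958 in B16, 357 in place of 591 in YUMM1.1 and 1355 in place of 2510 for the difference, and with no filter 1055 were called in YUMM1.1. With library totals alone the members' median was -2.0 in place of -1.81 in B16 and -1.58 in place of -1.36 between the untreated lines, where that scaling moves the median of all genes by -0.19 and -0.22. In YUMM1.1 library totals turned Atf4 to -0.004, Chac1 to -0.027, Shmt2 to -0.034, Slc7a1 to -0.037 and Slc7a5 to -0.018, and Gpt2 between the untreated lines to -0.068. With no filter Chac1 between the treated lines was at 0.024. The cause was not tested. Leaving out each library moved the members' median in YUMM1.1 between -0.04 and 0.25, and the IFNG effect there over -0.003 to 0.20 for Atf4, -0.12 to 0.69 for Nupr1, -0.13 to 0.28 for Chac1, -0.041 to 0.35 for Ddit4, -0.10 to 0.037 for Sesn2, -0.039 to 0.23 for Vldlr, -0.058 to 0.031 for Psph, -0.060 to 0.21 for Shmt2, -0.11 to 0.075 for Mthfd2, -0.32 to 0.085 for Aldh1l2, -0.050 to 0.30 for Asns, -0.16 to 0.25 for Slc7a1, -0.061 to 0.49 for Slc7a3, -0.17 to 0.25 for Slc7a5, -0.27 to 0.16 for Slc1a4 and -0.13 to 0.42 for Slc1a5. It moved the difference of the effects for Atf3 over -0.216 to 0.479, and the treated lines' difference over -0.252 to 0.161 for Chac1 and -0.192 to 0.002 for Mthfd2. The difference for Nupr1 passed the threshold without library 3 of untreated YUMM1.1, at 1.45. The replicate numbers gave no steady pairing of the libraries. Same-numbered libraries correlated across genes at 0.12, -0.013 and 0.136 in B16 and at -0.018, -0.41 and -0.071 in YUMM1.1. Differently numbered YUMM1.1 libraries ranged from -0.298 to 0.418, the latter for IFNG library 2 with untreated library 1. A pairing under other numbers was not tested. With the number as a replicate block 30 members were lower and 1 higher in B16, 3 were higher in YUMM1.1, and 22 in place of 23 were higher between the treated lines. Depth limits Stc2 and Slc7a3 in B16, where 3 counts are the floor of a group.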
